A study of Mus musculus with 6 samples.

Results

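Genes of mitosis were compared between WT and Kansl1 KO primary mouse embryonic fibroblasts (MEFs), cells of connective tissue taken from embryos into culture. The list held 51 genes for mitotic kinases and cyclins, the spindle checkpoint, kinetochores, spindle motors, cytokinesis and condensin. A gene was a member when the symbol in the deposited expression table equalled a listed name, and each of the 51 names had 1 row among 26898 genes. All 51 members also passed the filter on low expression, which 14799 genes of the table passed.

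The WT group was Kansl1fl/fl, in which recombination sites flank both alleles of Kansl1. The KO group carried the same alleles and a Cre transgene under the broadly active CAG promoter (Kansl1fl/fl/CAG-cre), and tamoxifen switches this Cre on. There were 3 samples in each group, WT 4, 5 and 8 and KO 3, 7 and 10, which the study counts as separate animals. All 6 samples were C57BL/6 cells at passage 3 and received tamoxifen at 1 μM over 48 h. The labels give 10% fetal bovine serum in the medium, but the methods of the study state more serum, and which applies to these samples is not known. No Cre-positive cells with intact Kansl1 were analysed here, so the deletion and Cre cannot be told apart.

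In mitosis, cyclin-dependent kinase 1 and its cyclins start chromosome condensation and spindle formation, and kinetochores attach the chromosomes to spindle microtubules. The spindle checkpoint holds back the anaphase-promoting complex (APC/C) until all kinetochores are attached, after which separase cuts cohesin and the cell divides. Most of these genes are transcribed mainly in G2 and M phase, so that their RNA in a culture also follows the share of dividing cells. KANSL1 belongs to the NSL complex, which acetylates histones, and has also been found at spindle microtubules.

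Between 17655495 and 27718259 reads per sample were assigned to genes, as recovered from the TPM, lowest in KO 3 and highest in KO 7. Each member had between 60 and 6434 reads in a sample, with a median of 1098, and 48 of the 51 members had at least 100 reads in every sample. Kansl1, on chromosome 11 from 104333229 to 104468861, was at 28.5, 26.7 and 24.4 TPM (a measure of transcript abundance that is corrected for gene length and for the total of the sample) in WT 4, 5 and 8 and at 13.7, 15.8 and 14.4 TPM in KO 3, 7 and 10. It fell by 0.82 on the log2 scale (SE 0.11, limma adjusted p-value 0.000859), to 55.1% of its WT mean. Of 10 fibroblast markers, 9 were tested and 0 were called by limma, where 0 also passed with voom and 0 had an unadjusted p-value under 0.05. Their summed level was 10276 to 14852 TPM in WT and 11003 to 14436 TPM in KO samples. Of 12 macrophage markers, 9 were tested and Lyz2 was called higher, 8 of the 9 had a higher KO mean with an unadjusted p-value under 0.05, and their summed level was 44.2 to 52.1 TPM in WT and 91.6 to 179.9 TPM in KO samples. The leukocyte marker Ptprc was listed at 0.0872 to 0.257 TPM, and none of the 12 markers was at 0 in all 6 samples. The part of the macrophage markers in the results below was not tested.

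Members of each of the 7 role groups below fell in KO MEFs, although 20 of the 51 members were not called. With a threshold of 0.005 on the adjusted p-value and of 0.5 on the size of the log2 fold change, 31 of 51 members (60.8%) fell and 0 rose, where 9.03% of all tested genes were called lower and 1.64% higher (limma with Benjamini-Hochberg adjustment over all tested genes). The share of the members describes this list, and its difference from the share of all tested genes was not tested. In the counts below, genes that fell are those called lower in the main fit, to be set beside this 9.03%. Members that did not pass are thus not shown to be unchanged. No member had an unadjusted p-value under 0.05 in the direction of a rise, and 0 rose with voom on recovered reads. The median log2 fold change was -0.79 over the members and -0.07 over all tested genes, and 8.82% of tested genes had a value below the median of the members. The log2 fold change was below 0 in all 51 members, as in 57.4% of all tested genes, and remained so under each of the 15 alternatives where a member was tested. In 50 members, every KO sample lay below every WT sample, as in 29.9% of all tested genes, and Bub3 was the exception. With TPM scaled by median-of-ratios size factors this also held for 50 members, against 29.5% of all tested genes, and the fold change was below 0 in 48.4%. Mean expression in KO MEFs was 36.0% of WT for Spc24 and 91.3% for Bub3, with a median of 56.7% over the members. In bulk RNA, fewer dividing cells and less of these RNAs in each dividing cell cannot be told apart.

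**Figure D1:**
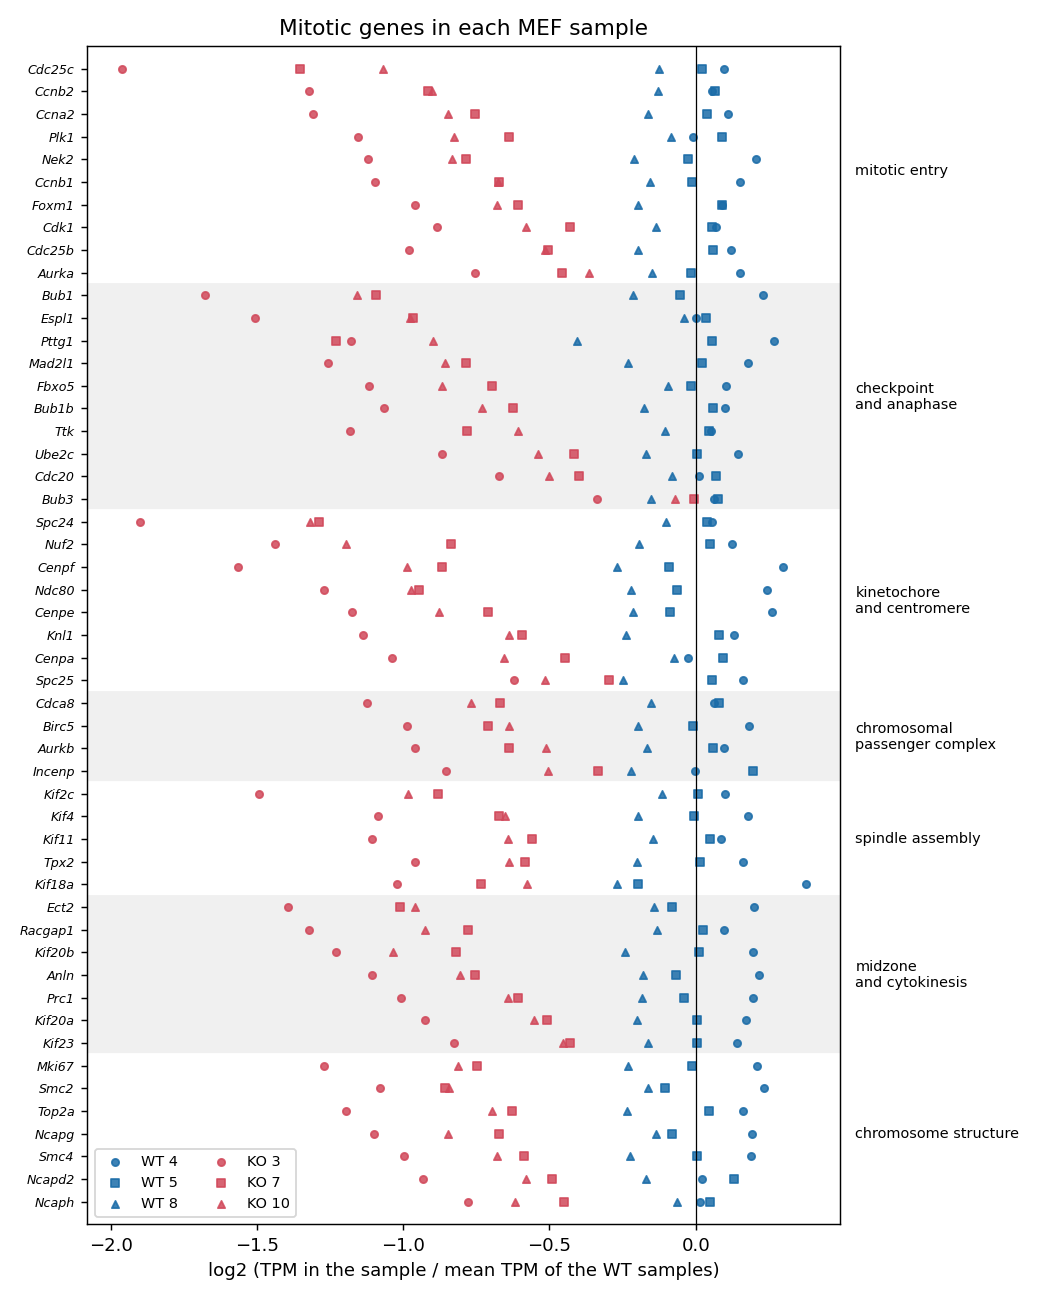
Expression of the 51 members in each sample, as log2 of TPM over the mean TPM of the WT samples, with 1 row per gene, WT samples in blue, KO samples in red and the role of the gene at the right. KO 3 was the lowest KO sample in 50 members, and only for Bub3 did KO samples lie among the WT samples.

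The number of calls depended on the samples and the settings. Without WT 4, 16 members were lower, against 5.6% of all tested genes, 12 were lower without WT 5 (4.16%) and 28 without WT 8 (5.71%). Without KO 3, 11 were lower, against 4.39% of all tested genes, 19 were lower without KO 7 (6.34%) and 19 without KO 10 (5.31%). The medians of the members in these fits lay between -0.86 and -0.65. At an adjusted p-value under 0.05, 48 members were lower, against 16.6% of all tested genes. When all 26898 genes were tested, 0 members were called by limma, and 286 genes (1.06%) were called lower in the whole table. In that fit, 50 members had an unadjusted p-value under 0.05 and 47 an adjusted p-value under 0.05. The shares of all genes at these looser limits are not given here for that fit. In the main fit, 4028 of 14799 tested genes were lower at an unadjusted p-value under 0.05, as were 50 members. Without a variance trend, 13 members were lower (7.76% of all tested genes), 30 were lower with a pseudocount of 0.1 (8.64%) and 31 with no limit on the fold change (9.04%). Of 42 members with a mean over all 6 samples of at least 10 TPM, 40 were lower (12.1% of all such genes), and without the 2 most abundant RNAs, 46 were lower (11.3%). No member was called higher under these alternatives, in which 0.204% to 4.69% of all tested genes were.

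**Figure D2:**
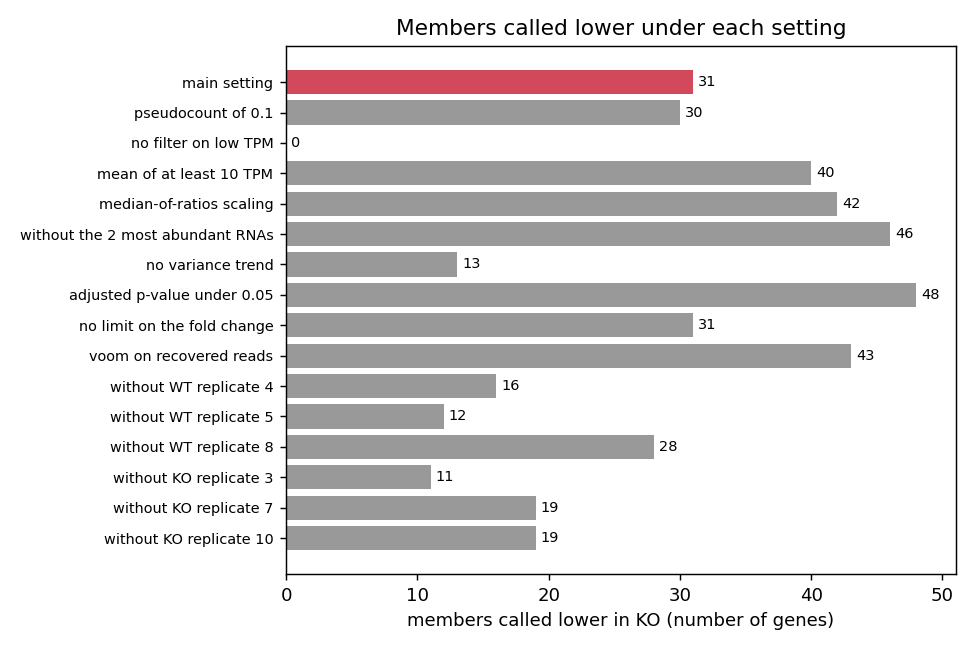
Number of the 51 members called lower in KO under the main setting, in red, and under each alternative, in grey. The bars run from 0 members, when all genes were tested, to 48 at an adjusted p-value under 0.05, and 42 of the members were tested at a mean over all 6 samples of at least 10 TPM.

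Samples of a group moved together across the list. KO 3 was the lowest KO sample for 50 of 51 members, WT 4 was the highest WT sample for 40 and WT 8 was the lowest for all 51. After the TPM were divided by median-of-ratios size factors, which were 0.876 for KO 3 and 1.09 for WT 4, KO 3 was still the lowest for 47 members and WT 4 the highest for 37, while WT 8 was the lowest for 31. Summed over the 51 genes, WT 4, 5 and 8 had 2185, 2042 and 1790 TPM, whereas KO 3, 7 and 10 had 989, 1315 and 1252 TPM. With that scaling the sums were 2009, 1919 and 1872 in WT, whereas KO samples had 1129, 1257 and 1271, so the groups stayed apart and the samples of each group lay closer together. KO 3 also had the fewest reads, and the part of depth in its low values was not tested.

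The promoters of the members were examined because genes that are transcribed in G2 and M phase commonly carry a CHR element, which the DREAM and MuvB complexes bind, near a CCAAT box, which NF-Y binds. Windows from 250 bases before to 50 bases after the RefSeq start site were matched by symbol for 42 of the 51 members (build GRCm38.p6). The CHR core was searched as TTTGAA and the CCAAT box as CCAAT, on both strands (TTCAAA and ATTGG), and in the members 1 match of a CHR core shared bases with a match of a CCAAT box, in Cdca8. An E2F site, searched as TTTCGCGC or GCGCGAAA, was found in 1 member, Cdk1 (2.38%), in 0.374% of all genes with a window and in 0.784% of tested genes. A CHR core was found in 31 of 42 members (73.8%), where 20.2% of all 27025 genes with a window and 14.0% of tested genes held it. A CCAAT box was also found in 31 of 42 members (73.8%), where 41.1% of all genes with a window held it. A match of both motifs was found in 26 members (61.9%), where 7.97% of all genes with a window held both. Of 95 other mitotic genes with a window, 33.7% held a CHR core and 55.8% a CCAAT box, and of 36 DNA replication genes, 11.1% and 63.9%. An E2F site was found in 0 of these 95 genes and in 16.7% of the 36 replication genes. These letters describe the windows and are not shown to be bound. Other forms of these elements were not searched, so a window without a match is not shown to lack the element. No window was matched for Tpx2, Foxm1, Aurkb, Incenp, Cdc25c, Kif20a, Smc4, Ccna2 and Spc24.

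The 150 bases before the start site are given for 6 members, chosen after their values were seen for the size of their change and for a window with or without a CHR core, with matches of either motif in capitals. All 6 hold a CCAAT box, and none of the 6 members with neither motif is printed. They are Bub1 and Ect2, which were among the largest falls, the mitotic cyclins Ccnb2 and Ccnb1, their kinase Cdk1, and Bub3, which had the smallest change. The windows lie at chr2:127831860-127832009 (minus strand), chr3:27153879-27154028 (minus strand), chr9:70421555-70421704 (minus strand), chr13:100786487-100786636 (minus strand), chr10:69352913-69353062 (minus strand) and chr7:131560220-131560369 (plus strand), and each sequence is read 5′ to 3′ on the strand of its gene. The CHR cores of Ccnb2, at -167 and 4 from the start, and 1 of Ect2, at 39, lie outside the printed bases.
Bub1: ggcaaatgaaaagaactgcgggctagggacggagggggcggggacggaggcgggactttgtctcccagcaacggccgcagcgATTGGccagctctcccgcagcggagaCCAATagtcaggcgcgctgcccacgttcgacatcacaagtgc
Ect2: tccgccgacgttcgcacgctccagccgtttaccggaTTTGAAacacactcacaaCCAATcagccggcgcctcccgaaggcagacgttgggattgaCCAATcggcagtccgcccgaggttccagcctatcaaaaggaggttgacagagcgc
Ccnb2: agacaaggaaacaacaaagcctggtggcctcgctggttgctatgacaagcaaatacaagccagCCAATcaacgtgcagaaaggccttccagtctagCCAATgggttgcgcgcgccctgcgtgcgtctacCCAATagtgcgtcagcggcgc
Ccnb1: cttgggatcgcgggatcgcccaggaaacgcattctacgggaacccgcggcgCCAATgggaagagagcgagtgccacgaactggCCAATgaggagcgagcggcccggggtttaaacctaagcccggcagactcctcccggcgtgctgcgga
Cdk1: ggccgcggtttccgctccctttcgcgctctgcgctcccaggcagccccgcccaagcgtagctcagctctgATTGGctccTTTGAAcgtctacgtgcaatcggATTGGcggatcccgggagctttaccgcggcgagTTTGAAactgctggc
Bub3: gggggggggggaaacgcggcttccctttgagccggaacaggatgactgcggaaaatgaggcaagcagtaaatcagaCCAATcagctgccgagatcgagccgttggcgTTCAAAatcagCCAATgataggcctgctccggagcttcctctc

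The 31 members with a CHR core had a median log2 fold change of -0.80 and 17 of them fell (54.8%), and the 11 without it had a median of -0.83 and 8 of them fell (72.7%). Among the other mitotic genes, the 32 with a CHR core had a median of -0.68 and 14 of them fell (43.8%), and the 63 without it had a median of -0.35 and 16 of them fell (25.4%). Bub3 carries a CHR core 43 bases before its start and a CCAAT box on either side of it. Bub1 and Ccnb1 have CCAAT boxes and no TTTGAA or TTCAAA in their windows. Among all tested genes with a window, the median was -0.20 for 1342 genes with a CHR core and -0.10 for 8223 genes without it, and 15.2% and 10.7% were called lower. The differences between genes with and without a motif were not tested.

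Of 10 genes of mitotic entry, 7 fell, with a median log2 fold change of -0.81. Cdk1, the kinase that drives entry (chromosome 10 from 69335146 to 69352938), was at 50.2, 49.6 and 43.5 TPM in WT 4, 5 and 8 and at 25.9, 35.5 and 32.0 TPM in KO 3, 7 and 10. The groups did not overlap, but its log2 fold change of -0.61 (SE 0.13) had a limma adjusted p-value of 0.00752 and did not pass. With median-of-ratios scaling it was called lower, at -0.52 with a limma adjusted p-value of 0.00116. Its partner Ccnb1, which encodes cyclin B1 (chromosome 13 from 100778650 to 100786570), fell from 61.6 ± 6.57 to 35.3 ± 5.65 TPM (SD, n = 3 in each group). Its values were 68.4, 61.0 and 55.3 TPM in WT 4, 5 and 8 and were 28.8, 38.7 and 38.5 TPM in KO 3, 7 and 10, and the log2 fold change was -0.79 (SE 0.14, limma adjusted p-value 0.00281). All KO values lay below all WT values, and 2 of the 6 fits without 1 sample called it.

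The other cyclins of mitosis fell as well. Ccnb2, for cyclin B2, was at 74.3, 74.9 and 65.4 TPM in WT and 28.6, 38.0 and 38.3 TPM in KO samples, a log2 fold change of -1.02. Ccna2, for cyclin A2, fell by 0.94 on the log2 scale, from 56.3 ± 5.44 to 29.1 ± 5.65 TPM (SD, n = 3). The largest fall of the group was in Cdc25c, a phosphatase that activates CDK1 (chromosome 18). It was at 7.45, 7.07 and 6.39 TPM in WT 4, 5 and 8 and at 1.79, 2.73 and 3.32 TPM in KO 3, 7 and 10, or 37.5% of the WT mean. It fell by 1.16 on the log2 scale (SE 0.18, limma adjusted p-value 0.00154), and it was called in each of the 6 fits without 1 sample. The related phosphatase gene Cdc25b was at 13.2 ± 1.49 TPM in WT and 8.43 ± 1.49 TPM in KO MEFs (SD, n = 3) and did not pass, with a limma adjusted p-value of 0.0152.

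Among kinases of entry, Plk1 (chromosome 7 from 122159439 to 122169873), which acts in centrosome maturation and in many later steps, was at 82.9, 88.8 and 78.8 TPM in WT and 37.5, 53.7 and 47.1 TPM in KO samples. It fell by 0.86 on the log2 scale (SE 0.13, limma adjusted p-value 0.00173). Nek2, a kinase of centrosome separation, fell by 0.83 to 53.4% of its WT mean. Aurka, the centrosomal Aurora kinase, was at 65.5 ± 6.85 and 45.8 ± 6.21 TPM (SD, n = 3) and did not pass, with a log2 fold change of -0.51 (limma adjusted p-value 0.0157). Foxm1, a transcription factor of G2 and M phase genes (chromosome 6 from 128362967 to 128376146), was at 41.0, 41.1 and 33.6 TPM in WT and 19.9, 25.3 and 24.1 TPM in KO samples. It fell by 0.72 (SE 0.13, limma adjusted p-value 0.00322), and it kept this call in 1 of the 6 fits without 1 sample.

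Of 10 genes of the spindle checkpoint and of anaphase, 7 fell, with a median log2 fold change of -0.81. Bub1, a checkpoint kinase at kinetochores (chromosome 2 from 127801122 to 127831865), was at 35.2, 28.9 and 25.9 TPM in WT 4, 5 and 8 and at 9.38, 14.1 and 13.5 TPM in KO 3, 7 and 10. Its mean in KO MEFs was 41.0% of WT, and its log2 fold change of -1.23 (SE 0.17) had a limma adjusted p-value of 0.000934. The related Bub1b, for the checkpoint protein BUBR1 (chromosome 2 from 118598211 to 118641591), fell from 40.7 ± 4.08 to 23.5 ± 3.60 TPM (SD, n = 3). Its samples were at 43.6, 42.4 and 36.1 TPM in WT and 19.5, 26.4 and 24.5 TPM in KO, and the log2 fold change was -0.78 (SE 0.13, limma adjusted p-value 0.00279), with a call in 2 of the 6 fits without 1 sample. Mad2l1 and Ttk, for the checkpoint proteins MAD2 and MPS1, fell by 0.88 and 0.76 on the log2 scale, and of the 6 fits without 1 sample, 1 called Mad2l1 and 0 called Ttk.

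Bub3, whose protein brings BUB1 and BUBR1 to kinetochores, had the smallest fold change of the members. It was at 41.7, 42.2 and 35.9 TPM in WT 4, 5 and 8 and at 31.6, 39.8 and 38.0 TPM in KO 3, 7 and 10, so that KO 7 and KO 10 lay above WT 8. Its log2 fold change was -0.13 (95% interval -0.40 to 0.14, limma adjusted p-value 0.45) and was -0.04 with median-of-ratios scaling. The ratio of Bub3 to Bub1 within a sample was 1.19, 1.46 and 1.39 in WT and 3.37, 2.83 and 2.83 in KO samples, in TPM. The groups did not overlap, and an exact permutation test, two-sided, gave p = 0.1, the smallest value that 3 against 3 samples allow. This pair was chosen after its values were seen, so this p-value is no evidence for a change of the ratio.

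The genes around anaphase were mixed. Espl1, for separase, fell by 1.03 on the log2 scale to 45.8% of its WT mean, and Pttg1, for its inhibitor securin, fell by 0.96 to 46.9%. Fbxo5, for the APC/C inhibitor EMI1, fell by 0.85. Cdc20, for the activator of the APC/C and the member with the highest expression, was at 172 ± 9.02 TPM in WT and 120 ± 11.4 TPM in KO MEFs (SD, n = 3). Its log2 fold change was -0.52 with a limma adjusted p-value of 0.00522, just outside the threshold. Ube2c, for an enzyme that works with the APC/C, had a log2 fold change of -0.59 and did not pass, with a limma adjusted p-value of 0.0104.

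Of 8 genes of the kinetochore and centromere, 4 fell, and the median log2 fold change was -0.90. In all 8, every KO sample lay below every WT sample, as in 29.9% of all tested genes. With median-of-ratios scaling 7 were called lower, against 9.91% of all tested genes, and with voom also 7, against 12.2%. The largest fall of all members was in Spc24, a subunit of the NDC80 complex that binds microtubules (chromosome 9 from 21755442 to 21760303). It was at 12.4, 12.3 and 11.1 TPM in WT 4, 5 and 8 and at 3.21, 4.89 and 4.79 TPM in KO 3, 7 and 10, and its log2 fold change was -1.31 (SE 0.15, limma adjusted p-value 0.000499). Ndc80 itself (chromosome 17 from 71496100 to 71526857) fell from 11.4 ± 1.91 to 5.46 ± 0.659 TPM (SD, n = 3), or by 0.93 on the log2 scale (SE 0.15, limma adjusted p-value 0.00187). Its samples were at 13.5, 10.9 and 9.74 TPM in WT and 4.70, 5.90 and 5.78 TPM in KO. Nuf2, the partner of NDC80, fell by 1.05.

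The remaining subunit of the complex, Spc25, had a smaller fold change. It was at 24.3, 22.6 and 18.3 TPM in WT and 14.1, 17.7 and 15.2 TPM in KO samples, with a log2 fold change of -0.44 (95% interval -0.75 to -0.14, limma adjusted p-value 0.0368). The ratio of Spc25 to Spc24 in TPM was 1.96, 1.84 and 1.64 in WT and 4.41, 3.62 and 3.18 in KO samples. The KO ratios lay above the WT ratios, with p = 0.1 in an exact permutation test, two-sided, the smallest value allowed. This pair too was chosen after its values were seen, so its p-value is no evidence either.

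At the centromere, Cenpa, the histone H3 variant that marks it (chromosome 5 from 30666777 to 30674830), was at 27.0, 29.3 and 26.1 TPM in WT and 13.4, 20.1 and 17.4 TPM in KO samples. The groups did not overlap, and its log2 fold change of -0.68 (SE 0.15) missed the threshold (limma adjusted p-value 0.00779). Cenpe, a kinetochore motor, fell by 0.86, whereas Cenpf and Knl1 had log2 fold changes of -0.95 and -0.70 with limma adjusted p-values of 0.00508 and 0.0102 and did not pass.

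The chromosomal passenger complex corrects wrong attachments and has 4 subunits, of which 2 fell. These were Cdca8, for borealin, at -0.80, and Birc5, for survivin, at -0.75 on the log2 scale. Its kinase gene Aurkb (chromosome 11 from 69045647 to 69051664) was at 32.5, 31.7 and 27.1 TPM in WT and 15.6, 19.5 and 21.3 TPM in KO samples. No KO sample reached a WT sample, but the log2 fold change of -0.67 (SE 0.13) had a limma adjusted p-value of 0.00566 and did not pass. Incenp, the scaffold, had a log2 fold change of -0.54 (limma adjusted p-value 0.0269).

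Of 5 genes of spindle assembly, 3 fell. Kif2c, a kinesin that shortens microtubules at centromeres (chromosome 4 from 117159639 to 117182639), was at 31.8, 29.8 and 27.4 TPM in WT 4, 5 and 8 and at 10.6, 16.1 and 15.0 TPM in KO 3, 7 and 10. The KO mean was 46.8% of WT, with a log2 fold change of -1.06 (SE 0.15, limma adjusted p-value 0.00123). Kif4 and Tpx2, a chromosome-bound motor and a spindle assembly factor, fell by 0.75 and 0.71, and of the 6 fits without 1 sample, 0 called Kif4 and 1 called Tpx2. Kif11, the motor that pushes spindle poles apart (chromosome 19 from 37376403 to 37421859), was at 28.0, 27.3 and 23.8 TPM in WT and 12.2, 17.9 and 16.9 TPM in KO samples. It did not pass, at -0.73 (SE 0.15, limma adjusted p-value 0.00596). Kif18a, the member with the lowest expression at 3.63 ± 0.944 TPM in WT (SD, n = 3), had a log2 fold change of -0.55 (limma adjusted p-value 0.0514).

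Of 7 genes of the spindle midzone and cytokinesis, 4 fell, with a median log2 fold change of -0.86. Ect2, which activates the small GTPase RhoA to form the cleavage furrow (chromosome 3 from 27097222 to 27153878), was at 35.0, 28.8 and 27.6 TPM in WT and 11.6, 15.1 and 15.7 TPM in KO samples. It fell to 46.4% of its WT mean, by 1.06 on the log2 scale (SE 0.14, limma adjusted p-value 0.000873). Racgap1, which recruits ECT2 to the midzone, fell by 0.97, Kif20b by 0.94 and the furrow scaffold Anln by 0.86. Prc1, which bundles midzone microtubules (chromosome 7 from 80294450 to 80316259), was at 33.3, 28.3 and 25.6 TPM in WT and 14.5, 19.1 and 18.6 TPM in KO samples. Its log2 fold change of -0.71 (SE 0.14) had a limma adjusted p-value of 0.00522 and did not pass. The midzone motors Kif20a and Kif23 did not pass either, at -0.64 and -0.54.

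Of 7 genes of chromosome structure, 4 fell, with a median log2 fold change of -0.80. Mki67, for the proliferation marker Ki-67 at the surface of mitotic chromosomes (chromosome 7 from 135689784 to 135716361), was at 71.6, 61.3 and 52.7 TPM in WT 4, 5 and 8. It was at 25.7, 36.9 and 35.2 TPM in KO 3, 7 and 10, a log2 fold change of -0.91 (SE 0.16, limma adjusted p-value 0.00285), and it was called in 2 of the 6 fits without 1 sample. Top2a, for the topoisomerase that untangles chromosomes (chromosome 11 from 98992943 to 99024189), was at 78.8 ± 10.8 TPM in WT and 44.7 ± 8.97 TPM in KO MEFs (SD, n = 3). Its samples were at 88.1, 81.3 and 67.0 TPM in WT and 34.4, 51 and 48.7 TPM in KO, and its log2 fold change of -0.82 (SE 0.16) had a limma adjusted p-value of 0.00528, outside the threshold.

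Condensin I compacts mitotic chromosomes, and 3 of its 5 subunits fell, namely Smc2 by 0.90, Ncapg by 0.80 and Smc4 by 0.73 on the log2 scale. Ncapd2 was at 50.6 ± 5.30 and 32.1 ± 4.96 TPM (SD, n = 3), for a log2 fold change of -0.65 (limma adjusted p-value 0.00695). Ncaph was at 22.9 ± 0.914 and 15.0 ± 1.71 TPM (SD, n = 3), for a log2 fold change of -0.58 (limma adjusted p-value 0.00502). For each of the 5 subunits, all KO samples lay below all WT samples. Smc2 and Smc4 are also subunits of condensin II.

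**Figure D3:**
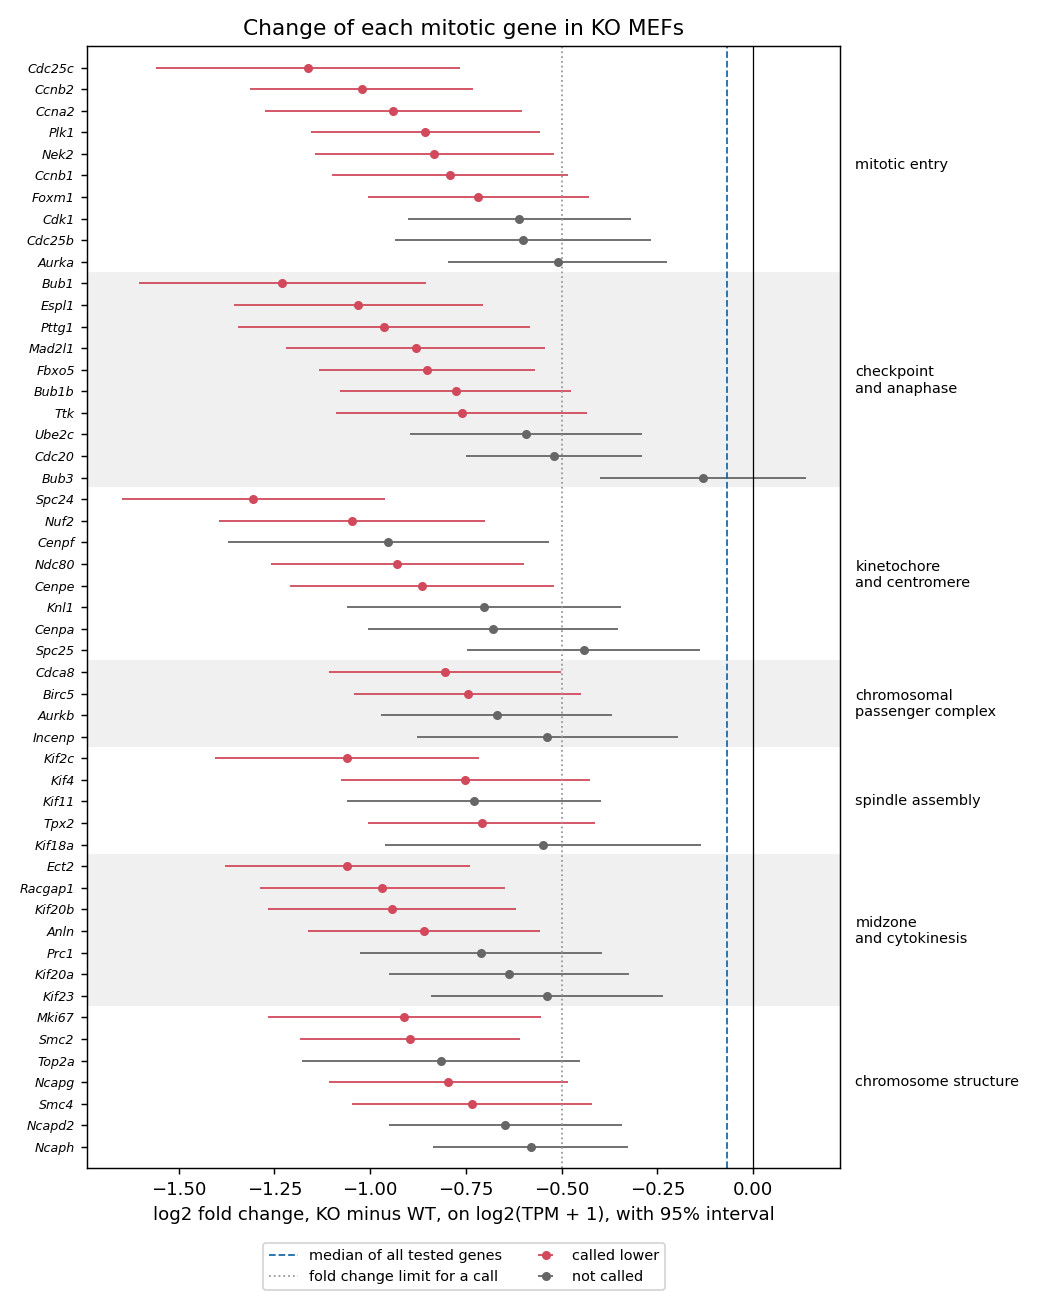
Log2 fold change of each member, KO minus WT on the log2(TPM + 1) scale, with its 95% interval from limma, in red where the gene was called lower and in grey where it was not. The dashed line is the median of all tested genes at -0.07, the dotted line is the limit of -0.5, and the interval of Bub3 alone reaches above 0.

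The calls of 9 members held in each of the 6 fits without 1 sample, namely Ccnb2, Cdc25c, Bub1, Fbxo5, Espl1, Spc24, Kif2c, Racgap1 and Ect2. Ttk and Kif4 were called in 0 of these fits, and 8 members were called in only 1, namely Nek2, Foxm1, Mad2l1, Cenpe, Birc5, Tpx2, Smc4 and Ncapg. Another 5, namely Ccnb1, Bub1b, Pttg1, Cdca8 and Mki67, were called in 2 of the fits. Ndc80 and Kif20b were called in 4, and Ccna2, Plk1, Nuf2, Anln and Smc2 in 5. With 3 samples in each group and an adjusted p-value under 0.005, members such as Ncaph, Cenpf, Cdc20, Prc1, Top2a, Aurkb and Kif11 lay between 0.00502 and 0.00596, so their difference from the called members rests on the threshold. Scaling by median-of-ratios shifted the median of all tested genes from -0.07 to 0.02 and gave 42 members lower, against 9.91% of all tested genes, and voom on recovered reads gave 43, against 12.2%. Exons of 13 members overlap a gene on the opposite strand, and the library kit that the study names does not mark strand, so reads from such a pair cannot be told apart where they overlap. The overlap was largest for Kif20a, with 29.3% of its exon bases shared with Cdc23, and for Ube2c, with 22.8% shared with Tnnc2, and it exceeded 10% of the exon bases in 7 members, which also included Kif4, Ncapg, Cdc25c, Ccna2 and Prc1.

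Other genes of mitosis were described from a list of 114 that are not among the members, of which 112 were tested. Of these, 35 fell (31.2%) and 0 rose, with a median log2 fold change of -0.48, and 2 had an unadjusted p-value under 0.05 in the direction of a rise. Cenpt was called higher, as 1 gene of the list, under voom and also under median-of-ratios scaling. Genes of the inner centromere and kinetochore had the most calls, with 15 of 34 lower. Cenpq, a subunit of the constitutive centromere network, fell from 14.3 ± 1.43 to 3.84 ± 0.724 TPM (SD, n = 3), a log2 fold change of -1.67. Cenph, of the same network, fell from 21.5 to 7.06 TPM on average and Oip5, which acts in CENP-A loading, by 1.58 on the log2 scale. The others called were Kntc1, Ska1, Cenpn, Mis18a, Spdl1, Itgb3bp, Cenpu, Cenpk, Nsl1, Cenpx, Cenpw and Dsn1.

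Of 27 other spindle and cytokinesis genes, 10 fell, namely Haus2, Cep55, Aspm, Kif14, Dlgap5, Kif15, Kif22, Cit, Haus6 and Tacc3. Of 19 other kinases, phosphatases and cofactors, 5 fell, namely Pbk, Haspin, Cdca3, Mastl and Melk. Of 16 genes of condensin II and cohesin, 4 fell, namely the condensin II subunits Ncapd3 and Ncaph2 and the cohesin regulators Cdca5 and Esco2. Of 16 genes of the APC/C, 1 was lower (6.25%, near the 9.03% of all tested genes), Anapc10, which fell from 7.31 ± 1.16 to 3.35 ± 0.446 TPM (SD, n = 3), and the median log2 fold change was -0.18.

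Of 26 regulators of cell cycle transcription, 4 fell (15.4%) and 1 rose, where 9.03% of all tested genes were called lower and 1.64% higher. Mybl2, the MYB protein that joins the MuvB core at G2 and M phase promoters, fell from 21.1 ± 1.11 to 8.12 ± 1.19 TPM (SD, n = 3), a log2 fold change of -1.28 with a limma adjusted p-value of 0.000275. Lin52, a MuvB subunit, fell from 6.85 ± 1.25 to 2.22 ± 0.709 TPM (SD, n = 3), or by 1.30 on the log2 scale. It missed the threshold without KO 3, at -1.13 with a limma adjusted p-value of 0.00528. Rbl2, for the DREAM repressor p130, fell by 1.18 and Tfdp2, an E2F partner, by 0.92, and Tfdp2 was called in 1 of the 6 fits without 1 sample (without KO 7). Cdkn1a, for the CDK inhibitor p21, rose from 267 ± 32.3 to 469 ± 18.9 TPM (SD, n = 3), by 0.82 on the log2 scale (limma adjusted p-value 0.000797). Cdkn2a was at 32.2 ± 5.44 TPM in WT and 53.9 ± 6.92 TPM in KO MEFs (SD, n = 3), with all KO above all WT samples. Its log2 fold change of 0.73 did not pass (limma adjusted p-value 0.00562), and neither did that of Cdkn1b, at -0.13 (limma adjusted p-value 0.492). The MuvB genes Lin9, Lin37, Lin54 and Rbbp4 did not pass, with log2 fold changes of -0.28, -0.50, -0.34 and 0.06.

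Genes of DNA replication, which precedes mitosis in the cell cycle, were set beside the members. Of 44 tested replication genes, 16 fell (36.4%) and 0 rose, where 0 also rose with voom and at an unadjusted p-value under 0.05, and the median log2 fold change was -0.62. Those called were Rfc4, Prim1, Cdc6, Gins3, Prim2, Mcm10, Gins4, Cdc45, Rfc1, Pold3, Rpa3, Rfc5, Rfc2, Lig1, Tk1 and Rrm1. The medians of the members, the other mitotic genes and the replication genes were thus -0.79, -0.48 and -0.62, and the difference between the lists was not tested.

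**Figure D4:**
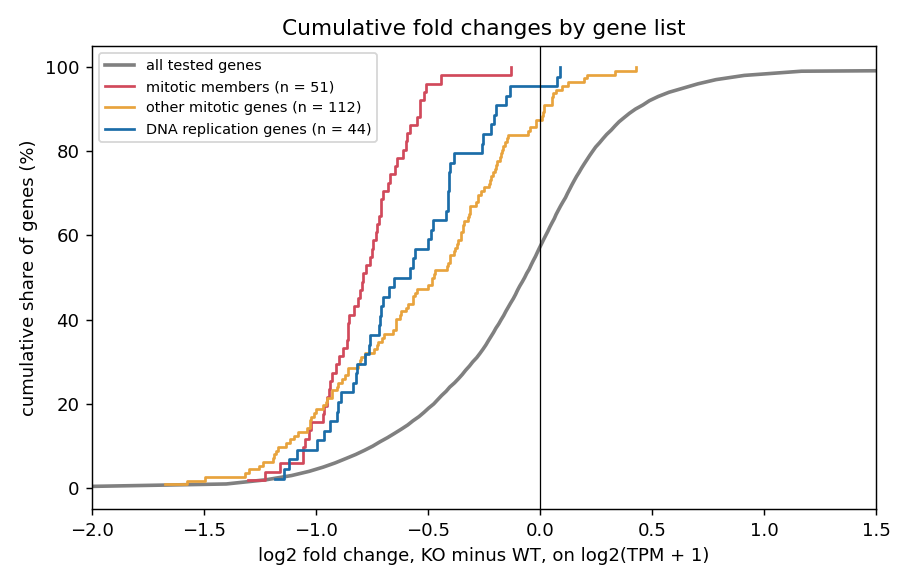
Cumulative share of genes by log2 fold change, KO minus WT, for the 51 members, 112 other mitotic genes, 44 DNA replication genes and all 14799 tested genes, drawn over part of the range. The curve of the members lies wholly below 0, with a median of -0.79.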

How the data were processed

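RNA sequencing was performed on 3 WT and 3 KO MEF samples, each from 2 μg RNA. The authors aligned reads to mm10 with STAR per the methods of the study, while the submitters' processing notes name Bowtie 0.12.2; the counting program is not given in the sources used here. The authors deposited TPM per gene and sample. The deposited table also holds the authors' own log2 fold change and adjusted p-value for each gene, which were not used. Of 26898 gene identifiers, 26898 matched GENCODE release 21 for mouse.

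TPM multiplied by merged exon length came out as whole reads, at a fixed step in each sample, for 100.0% of 17832 to 18650 values checked (tolerance 0.05), which gave whole reads for depth and for 1 alternative. Only values below a set number of reads were checked, and the median of the members, 1098 reads, lies above it. The test was limma 3.58.1 (R 4.3.3), fitted with a variance trend and no covariate to log2(TPM + 1) of genes whose WT or KO mean reached 1 TPM. Fold changes on this scale understate changes of low genes. Calls needed a p-value under 0.005 after Benjamini-Hochberg adjustment and a fold change of more than 0.5 in size on the log2 scale. In data simulated for this comparison (14526 genes), 96% of 100 genes changed by 2 and 57% of 100 changed by 1 on the log2 scale were recovered. The changed genes were drawn only from those above a set WT level, which Kif18a does not reach. Noise was drawn separately for each gene, and far fewer genes were changed than were called in the main fit. These shares are therefore not recovery rates for the members.

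Kansl1, every member and the called genes of the other lists are named. Full values are given for Kansl1, for the 5 largest falls among members (0 rose) and for Mki67, Cdk1, Ccnb1, Plk1, Aurkb, Bub1b, Ndc80, Cenpa, Kif11, Prc1, Top2a and Foxm1. The members and lists were chosen with earlier results of these data known. Endothelial, epithelial, neural, muscle and erythroid markers were also listed. Of their 9 tested genes, 0 were called by limma and 1, Kdr, was called higher with voom. At an unadjusted limma p-value of less than 0.05, 4 were higher, namely Kdr, Krt8, Krt18 and Tubb3, and 0 were lower. At that limit, 1810 of 14799 tested genes were higher.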

Additional observations from a re-analysis of the deposited data

How the results depend on the processing

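Against 31 members called lower, 0 were called lower when all genes were tested without a filter, 13 without a variance trend and 48 at an adjusted p-value under 0.05. Leaving out 1 sample gave 11 to 28, and these fits had fewer samples. The cause of the count without a variance trend was not tested. A pseudocount of 0.1, a mean over all 6 samples of at least 10 TPM, median-of-ratios scaling, removal of the 2 most abundant RNAs, no limit on the fold change and voom gave 30 to 46. No alternative gave a member called higher, and the median log2 fold change of the members ranged from -0.86 to -0.65. Over all members and alternatives, no fold change reversed. In fits on all 6 samples, 50 results for single members were no longer past the thresholds and 70 newly passed, and without 1 sample 81 were no longer past them. Scaled TPM, a comparison chosen after seeing the data, left 50 members with all KO below all WT samples. No paired analysis was possible because no replicate number occurs in both groups. The fewest reads of a member in a sample were 60, for Spc24 in KO 3, and Spc24 was called in each fit without 1 sample. The effect of depth on the calls was not tested.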
